A study of Homo sapiens with 9 samples.

Results

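The keratin family was followed across prostate cancer cell lines at the level of mRNA. Its genes were chosen by name, as every row of the gene count table whose symbol was KRT, a number and at most 1 letter from A to C, which gave 55 genes of 28216. PC3 and LNCaP are human prostate cancer cell lines that were established from metastases. There were 3 groups of 3 RNA-seq libraries each. The PC3 group was left untreated and was grown in F12K medium with serum. The LNCaP (clone FCG) groups were kept for 24 h in phenol red-free medium with charcoal-stripped serum, which is low in steroids, and then received androgen or vehicle for 48 h. The androgen was labelled as DHT at 10 nM, whereas the main text of the study names the synthetic androgen R1881, so the agent is called androgen here. The vehicle was ethanol at 0.01%. Medium and serum changed together with the cell line, so their effects cannot be told apart from that of the line in any comparison with PC3. The labels do not say whether the replicates were separate cultures. The study speaks of independent experiments in general and of a batch term in its RNA-seq model, without tying libraries to either, so the p-values measure the spread between these libraries, which may be technical.

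Keratins are the intermediate filament proteins of epithelial cells. A type I keratin pairs with a type II keratin, and the pairs assemble into filaments that are anchored at desmosomes and hemidesmosomes. KRT8 and KRT18 form the pair of simple epithelia, including the luminal secretory cells of the prostate, and KRT7 and KRT19 accompany them in many ducts. KRT5, KRT14 and KRT15 mark basal cells of stratified and glandular epithelia, and KRT6 and KRT16 accompany rapid growth and wound repair. The hair keratins form the cortex and cuticle of the hair shaft. Of the 55 genes, 29 encode type I and 26 type II keratins, and 28 of the type I genes lie on chromosome 17. The remaining type I gene, KRT18, lies on chromosome 12 beside all the type II genes, in a cluster of 27 genes over 783.9 kb (GRCh38, GENCODE).

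The libraries held between 17397706 and 25640325 counts on genes each. Keratins took 0.218% to 0.308% of the counts in PC3, 0.263% to 0.290% in androgen-treated LNCaP and 0.0677% to 0.0687% in vehicle-treated LNCaP. The labels were checked against cell type markers. The 6 luminal prostate markers in the table summed to 10010 to 10550 CPM (counts relative to library size, TMM-scaled over all 9 libraries) in androgen-treated LNCaP, 1583 to 1853 CPM in vehicle-treated LNCaP and 516 to 860 CPM in PC3, where KLK2 had at most 3 counts. HOXB13 made up most of the PC3 sum, at 600 CPM against 423 CPM with androgen and 536 CPM with vehicle. It was called in no comparison (edgeR, adjusted p under 0.05 and a fold change of 2 or more). The other 5 were called lower in PC3 than in either LNCaP group, where 22.1% and 21.0% of all genes were. The 6 basal markers summed to 309 to 524 CPM in PC3 and to at most 9.75 CPM in LNCaP. TP63, the defining factor of basal cells, had 5, 2 and 4 counts in PC3 and at most 3 in any LNCaP library, and NGFR stood at 0.160 CPM in PC3 and 0.611 CPM with androgen. The mesenchymal list summed to 2855 to 3663 CPM in PC3, 170 to 181 CPM in androgen-treated and 413 to 457 CPM in vehicle-treated LNCaP. The lower sum with androgen than with vehicle lay in FN1, which was called lower, at 109 against 424 CPM. VIM, TWIST1 and SNAI2 were called higher with androgen, where 6.54% of all genes were called higher and 7.49% lower. The fibroblast list summed over all libraries to 12.99 to 49.95 CPM with DCN at most at 3 counts. Most of it was COL1A1, at 38.5 CPM in PC3, 13.4 CPM with androgen and 21.8 CPM with vehicle. COL3A1, at 5.0 CPM in PC3, was called higher there than in either LNCaP group. The blood list summed to 1.59 to 34.5 CPM with CD3E and HBB at most at 3 counts. Most of it was CD68, at 33.1 CPM in PC3, 18.7 CPM with androgen and 1.83 CPM with vehicle. CD68 was called higher with androgen than with vehicle, and in PC3 than with vehicle.

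Most keratin genes were silent or nearly so. In 29 of the 55 genes no library had over 3 counts, and 17 of these had 0 counts in all 9 libraries, which allows at most 3 counts over a group. In turn, 12 keratins exceeded 3 CPM in at least 3 of the 9 libraries, and the other 14 had over 3 counts in some library but stayed below that level. By role, all 5 simple epithelial keratins had over 3 counts in some library, as did 7 of 8 basal and hyperproliferative keratins, 8 of 17 hair shaft keratins, 3 of 11 suprabasal and mucosal keratins, 2 of 9 hair follicle sheath keratins and 1 of 5 others. KRT17, a basal keratin, and KRT13, of mucosal epithelia, had at most 2 counts in any library, and the suprabasal skin keratins KRT1 and KRT9 had 0. Among the 29 were also KRT23, KRT24, KRT222 and the hair keratins KRT31, KRT33A, KRT33B, KRT35, KRT38, KRT39, KRT40, KRT82 and KRT84.

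**Figure D1:**
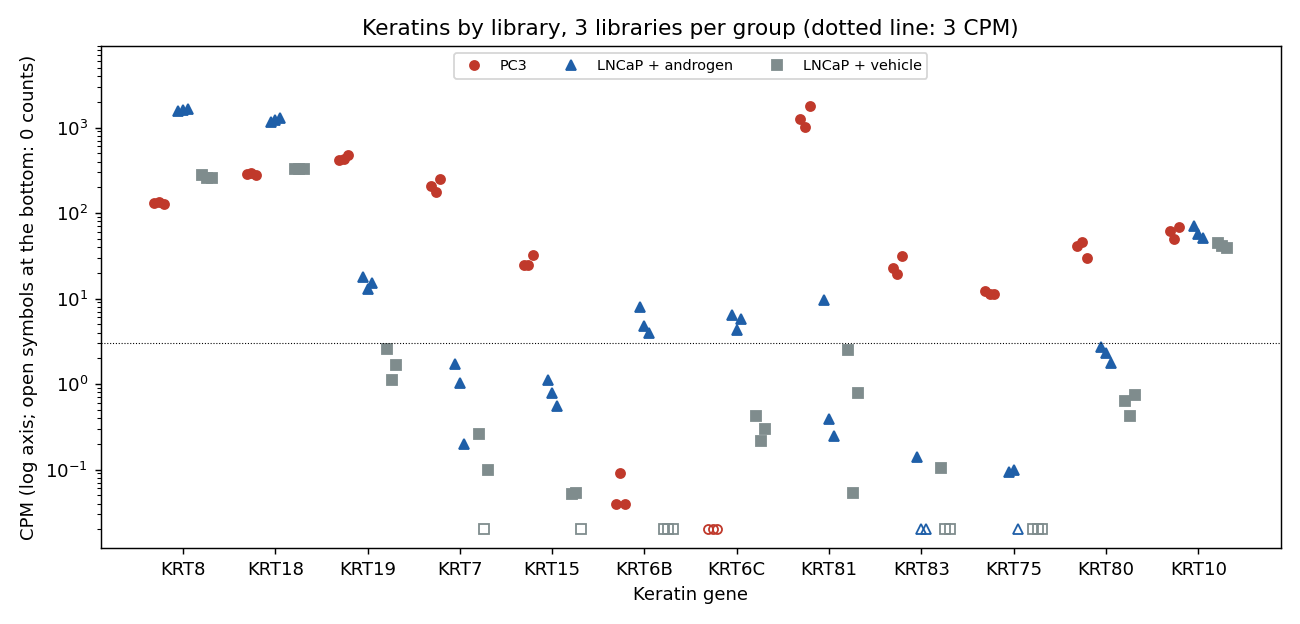
Level of the 12 keratins with over 3 CPM in at least 3 libraries, in CPM on a log axis, with 1 symbol per library (circles, PC3; triangles, androgen-treated LNCaP; squares, vehicle-treated LNCaP; open symbols at the bottom, 0 counts). KRT8 and KRT18 are highest in androgen-treated LNCaP, KRT81, KRT19 and KRT7 lie above 100 CPM only in PC3, and KRT10 lies between 38.8 and 69.6 CPM in all 9 libraries.

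The sequence before the start of the gene is shown for 3 keratins with contrasting patterns: KRT75, which was measured almost only in PC3, KRT2, measured almost only in androgen-treated LNCaP, and KRT10, measured at 38.8 to 69.6 CPM in all 9 libraries. RefSeq promoter windows (GRCh38.p14, 250 bases before to 50 after the start) were found for 34 of the 55 keratins. The 250 bases before the start are written 5′ to 3′ on the strand of the gene, which is the minus strand in each case, with motif matches in capitals, and overlap no exon of GENCODE.
KRT75 (chr12:52434372-52434621): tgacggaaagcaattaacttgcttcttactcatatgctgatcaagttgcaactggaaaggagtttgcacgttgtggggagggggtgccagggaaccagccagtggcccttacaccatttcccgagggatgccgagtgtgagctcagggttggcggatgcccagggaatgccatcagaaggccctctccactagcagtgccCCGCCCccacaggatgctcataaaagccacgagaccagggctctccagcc
KRT10 (chr17:40822615-40822864): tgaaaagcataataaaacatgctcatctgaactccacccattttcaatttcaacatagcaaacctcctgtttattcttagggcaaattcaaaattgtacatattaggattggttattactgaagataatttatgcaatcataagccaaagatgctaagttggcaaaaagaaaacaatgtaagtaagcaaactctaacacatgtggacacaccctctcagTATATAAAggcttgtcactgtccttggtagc
KRT2 (chr12:52652212-52652461): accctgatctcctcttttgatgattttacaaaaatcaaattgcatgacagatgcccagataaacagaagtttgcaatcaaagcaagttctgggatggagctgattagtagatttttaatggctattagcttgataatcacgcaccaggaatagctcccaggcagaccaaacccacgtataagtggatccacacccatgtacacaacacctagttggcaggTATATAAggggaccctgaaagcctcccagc
In KRT75 the capitals mark a GC box, GGGCGG read on the opposite strand, that starts 50 bases before the start site. In KRT10 they mark overlapping matches to TATATAA and TATAAA, starting 31 and 29 bases before the start, and in KRT2 a match to TATATAA at 30 bases before it. Searched on both strands, TATAAA was present for 21 of the 34 keratins (61.8%) and in 11.5% of all 35116 windows. Of these 21, only KRT10, KRT34, KRT37 and KRT73 had over 3 counts in any library. The overlapping variant TATATAA was present for 10 of 34 keratins (29.4%) and in 2.57% of all windows. A keratin was counted where any of its windows matched, whereas the share over all is by window. GGGCGG was present in 6 of 34 (17.6%) and in 45.0% of all windows. The androgen half-site AGAACA was present in 5 of 34 (14.7%) and in 14.8% of all, and the palindromic androgen response element, made of this half-site, 3 free bases and its reverse complement, in 0 of 34 and in 0.003% of all. Of the 5 keratins called with androgen below, KRT8 had a window, and KRT18, KRT19, KRT6B and KRT6C are not in these shares. These are matches of letters only, and they show nothing about binding.

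The question of the androgen comparison is which genes respond to the hormone in LNCaP cells. KRT8 and KRT18, the luminal pair, were among the keratins that rose. KRT8 was measured at 1563, 1593 and 1667 CPM in the androgen-treated libraries and at 276.5, 255.4 and 260.1 CPM in the vehicle-treated ones, and rose by 2.58 ± 0.05 on the log2 scale (SE, n = 3 per group, edgeR quasi-likelihood test, adjusted p = 8.6e-14). KRT18 was measured at 1162, 1226 and 1291 CPM against 328, 329 and 326 CPM, and rose by 1.88 ± 0.05 (edgeR, adjusted p = 2.4e-12). In both genes every androgen-treated library lay far above every vehicle-treated library, with a fold change of 5.97 for KRT8 and 3.67 for KRT18. The KRT8 level per kb of exon was 0.359 ± 0.015 of that of KRT18 in vehicle-treated and 0.585 ± 0.013 in androgen-treated cells (SD, n = 3). The ratio itself depends on the exon length used, and its relative change does not.

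KRT19, a small type I keratin without the usual tail domain, also rose from a low level. Its values were 18.1, 13.1 and 15.2 CPM with androgen and 2.56, 1.12 and 1.69 CPM with vehicle, a log2 fold change of 3.08 ± 0.20 (edgeR, adjusted p = 1.1e-08). The KRT6 genes encode type II partners of KRT16 and KRT17. KRT6B was measured at 7.86, 4.81 and 3.92 CPM with androgen and had 0 counts in all vehicle-treated libraries, so it was at least 108-fold higher (3 counts over the group as the limit; edgeR, adjusted p = 5.1e-07). KRT6C was measured at 6.33, 4.27 and 5.71 CPM against 0.419, 0.213 and 0.298 CPM, a rise of 4.08 ± 0.27 on the log2 scale (edgeR, adjusted p = 1.7e-08). No androgen-treated library overlapped a vehicle-treated one in these 3 genes. The KRT6 genes share sequence: 35.1% of the 74-nt stretches of KRT6B transcripts, 35.6% of those of KRT6C and 24.8% of those of KRT6A were found at further places. Among the keratins they are shared with each other and with KRT5, so the count of each gene is uncertain.

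KRT10, a suprabasal type I keratin, differed less. It was measured at 69.6, 57.0 and 51.6 CPM with androgen and 44.4, 41.3 and 38.8 CPM with vehicle. The groups did not overlap, and the difference of 0.49 ± 0.09 on the log2 scale (edgeR, adjusted p = 0.00017) stayed under the fold change of 2 that a call required. An adjusted p under 0.05 alone was reached by 74.9% of all genes tested, and the test against a fold change of 2 (glmTreat) by 10.5%. Of the 6 keratins that passed the filter on low values (over 3 CPM in at least 3 of the 6 libraries), 5 were called higher with androgen and 0 lower. Of all 11697 genes tested, 14.0% were called, 6.54% higher and 7.49% lower. All 6 keratins and 79.6% of all genes had groups that did not overlap. The median log2 fold change was 2.83 over the 6 keratins and -0.01 over all genes. The filter keeps a keratin that is high in 1 group only, so these 6 do not stand for the 55.

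Without the filter, 31 keratins had at least 1 count in the LNCaP libraries, and 16 were called, all 16 higher with androgen (edgeR; 14.4% of all 20429 genes called, 6.66% higher and 7.73% lower). Among the 11 additional genes was KRT2, a suprabasal skin keratin, with 34, 20 and 19 counts with androgen and 1, 1 and 1 with vehicle, a ratio of pooled CPM of 22.7 (95% interval 7.47 to 113, for counting error only). KRT16, a type I partner of KRT6, had 26, 15 and 9 counts against 0, 0 and 0, at least 15.6-fold higher. KRT36, a hair keratin, had 17, 10 and 5 counts against 0, 0 and 1, and KRT6A had 15, 8 and 4 against 0, 1 and 0. KRT14 and KRT5 form the basal pair. KRT14 had 9, 22 and 12 counts against 3, 7 and 3, and KRT5 had 0, 5 and 3 against 0, 0 and 0, so that its groups overlapped. KRT15 was measured at 1.11, 0.785 and 0.546 CPM against 0.0523, 0.0533 and 0 CPM, and KRT80 at 2.73, 2.30 and 1.74 CPM against 0.628, 0.427 and 0.744 CPM, without overlap in either gene. KRT73, KRT20 and KRT7 complete the additional genes. KRT73 had 3, 1 and 4 counts with androgen and 0 with vehicle. KRT20 and KRT7 overlapped between the groups, KRT7 at 1.71, 1.03 and 0.199 CPM against 0.262, 0 and 0.0992 CPM. All these levels were below 3 CPM.

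**Figure D2:**
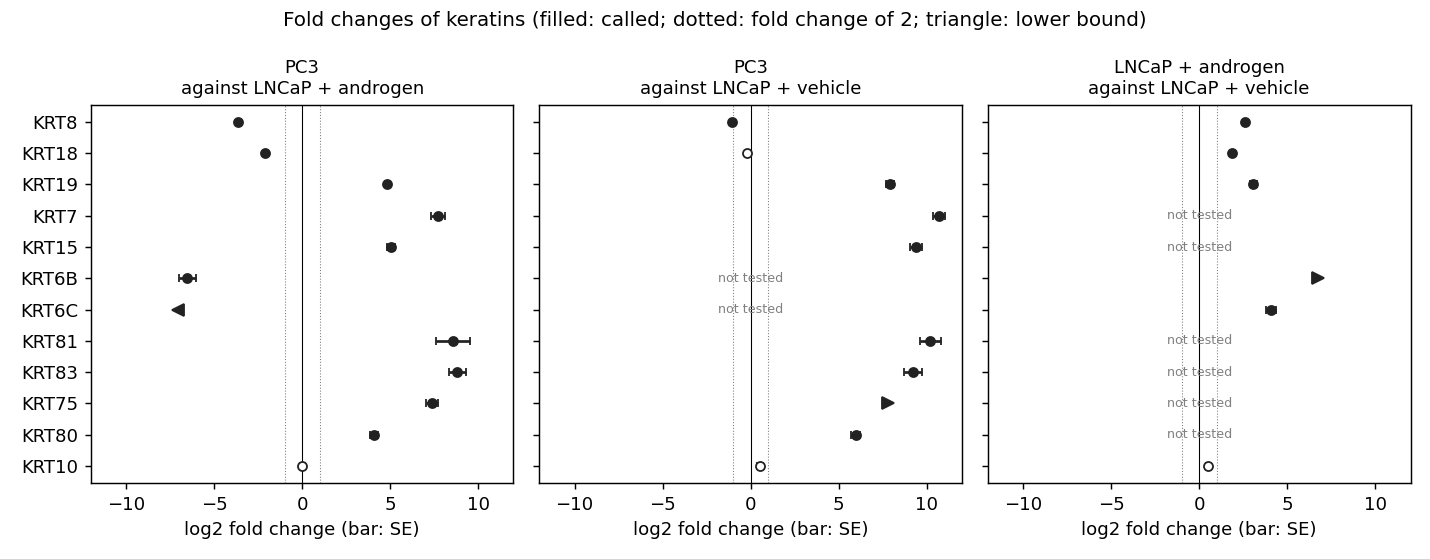
Log2 fold change of the 12 keratins in the 3 comparisons (bars, standard error; filled symbols, called; open symbols, tested and not called; dotted lines, a fold change of 2; triangles, lower bound where the other group had 0 counts). KRT8 and KRT18 lie left of 0 in PC3 against androgen-treated LNCaP at -3.64 and -2.11, whereas KRT7, KRT81, KRT83 and KRT75 lie beyond 7.

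PC3 and LNCaP are compared to ask how an androgen-independent line differs from an androgen-responsive one. In PC3 the luminal pair stood below its level in androgen-treated LNCaP: KRT8 was measured at 132, 133 and 126 CPM, and KRT18 at 289, 290 and 281 CPM. Against androgen-treated LNCaP, KRT8 differed by -3.64 ± 0.08 on the log2 scale (edgeR, adjusted p = 1.6e-08) and KRT18 by -2.11 ± 0.08 (adjusted p = 1.2e-07), 12.4 and 4.32 times lower in PC3. Against vehicle-treated LNCaP the difference was small. KRT8 differed by -1.04 ± 0.06 (edgeR, adjusted p = 1.1e-06), just past the fold change of 2, and a test against that fold change (edgeR, glmTreat) gave an adjusted p of 0.25. By that test 36.7% of all genes were called against vehicle-treated and 39.7% against androgen-treated LNCaP. KRT18 differed by -0.22 ± 0.05 (adjusted p = 0.0060), under the fold change required. An adjusted p under 0.05 alone was reached by 83.4% of all genes in this comparison and by 84.0% against androgen-treated LNCaP. These comparisons with PC3 share the PC3 libraries, and the androgen-treated libraries also enter the comparison with vehicle.

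KRT19 and KRT7, of simple ductal epithelia, were abundant in PC3. KRT19 was measured at 419, 427 and 478 CPM, a log2 difference of 4.82 ± 0.13 from androgen-treated LNCaP (edgeR, adjusted p = 3.7e-08) and of 7.92 ± 0.21 from vehicle-treated LNCaP (adjusted p = 3.7e-08). KRT7 was measured at 208, 177 and 251 CPM, with log2 differences of 7.72 ± 0.37 (edgeR, adjusted p = 4.6e-07) and 10.69 ± 0.34 (adjusted p = 6.7e-08). KRT20, the remaining simple keratin, had 73, 53 and 113 counts in PC3, against 7, 13 and 2 with androgen and 1, 0 and 4 with vehicle. Every PC3 library lay above every LNCaP library in these 3 genes. KRT15, which is at home in basal cells, followed them at 24.84, 24.68 and 32.04 CPM in PC3, 5.03 ± 0.23 above androgen-treated LNCaP on the log2 scale (edgeR, adjusted p = 3.6e-07) and 792 times above vehicle-treated LNCaP as a ratio of pooled CPM (95% interval 219 to 6545; adjusted p = 1.1e-07). The basal pair itself was not detectable at this depth in PC3, with 0, 0 and 1 counts of KRT14 and 1, 0 and 0 of KRT5.

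The hair shaft keratin KRT81 was the most abundant keratin of PC3, with a wide spread among its replicates. It was measured at 1252, 1017 and 1791 CPM in PC3, at 9.71, 0.392 and 0.248 CPM in androgen-treated LNCaP and at 2.51, 0.0533 and 0.794 CPM in vehicle-treated LNCaP. The log2 difference was 8.57 ± 0.98 from androgen-treated (edgeR, adjusted p = 6.8e-05) and 10.21 ± 0.60 from vehicle-treated LNCaP (adjusted p = 1.6e-06). Its size rested on replicate 1 of each LNCaP group. Without androgen-treated replicate 1 the log2 difference was 12.002, and without vehicle-treated replicate 1 it was 11.56. The same libraries bore on KRT7, whose log2 differences were 8.40 and 11.84 without them, and on KRT83, where the remaining LNCaP libraries had 0 counts.

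Transcripts of PC3 were looked for in these libraries with 93 other genes that had at least 50 CPM in every PC3 library and at most 1 CPM in every LNCaP library, a rule chosen after the values were seen. Summed, they stood at 0.483% of their PC3 level in androgen-treated replicate 1 and at 0.150% and 0.118% in replicates 2 and 3, and at 0.312%, 0.126% and 0.156% in the vehicle-treated libraries. KRT81 stood at 0.717%, 0.0290% and 0.0184% of its PC3 level with androgen and at 0.186%, 0.00394% and 0.0587% with vehicle. Replicate 1 was thus the highest of its group in both measures. KRT7 stood at 0.808%, 0.486% and 0.0938% with androgen and at 0.124%, 0% and 0.0469% with vehicle. KRT19 stood at 2.967% to 4.096%, KRT15 at 2.01% to 4.08% and KRT80 at 4.50% to 7.06% of their PC3 level in the androgen-treated libraries, and at 0.254% to 0.581%, 0% to 0.196% and 1.11% to 1.93% in the vehicle-treated ones. The rule holds each of the 93 genes near 0, so a keratin above them is no sign of its source. The part of PC3 transcripts in the LNCaP values was not tested.

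KRT83, another hair shaft keratin, was measured at 22.6, 19.1 and 31.5 CPM in PC3 and had 3 counts over the androgen-treated and 2 over the vehicle-treated libraries. The ratios of pooled CPM were 511 (95% interval 174 to 2478; edgeR, adjusted p = 1.1e-06) and 715 (198 to 5906; adjusted p = 9.2e-07). KRT86, of the same group, had 72, 58 and 107 counts in PC3, and 1, 1 and 0 and then 0, 0 and 0 counts in the LNCaP groups. All 3 genes were highest in PC3 replicate 3 and lowest in replicate 2. KRT83 counts were 1.81%, 1.88% and 1.76% of the KRT81 counts in the 3 PC3 libraries, and KRT86 counts 0.229%, 0.256% and 0.235%. Of the 74-nt stretches of KRT81, 36.9% also occur elsewhere, as do 30.6% of those of KRT86 and 3.77% of those of KRT83, with KRT81, KRT83, KRT85 and KRT86 sharing them. The small counts of KRT86 next to those of KRT81 are therefore uncertain.

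Among the remaining type II keratins, KRT75, of the hair follicle sheath, was measured at 12.4, 11.2 and 11.4 CPM in PC3, with 4 counts over the androgen-treated and 0 over the vehicle-treated libraries. Its ratio of pooled CPM was 182 (95% interval 70.7 to 668; edgeR, adjusted p = 2.8e-07) against androgen-treated LNCaP, and it was at least 226-fold higher than in vehicle-treated LNCaP (adjusted p = 1.2e-06). KRT80, which occurs in many epithelia, was measured at 40.6, 45.6 and 29.7 CPM, 4.08 ± 0.22 above androgen-treated (edgeR, adjusted p = 8.3e-07) and 5.96 ± 0.25 above vehicle-treated LNCaP (adjusted p = 2.6e-07). The KRT6 genes were higher in androgen-treated LNCaP than in PC3. KRT6C had 0 counts in PC3 and was at least 132-fold higher in androgen-treated LNCaP (edgeR, adjusted p = 1.1e-05), and KRT6B had 1, 2 and 1 counts in PC3, a ratio of pooled CPM of 101.5 in favour of androgen-treated LNCaP (95% interval 39.3 to 375; adjusted p = 5.6e-06). Its log2 difference was -6.53 ± 0.49, and -3.48 with unstranded counts, since more PC3 reads lay on its reverse strand than on its own. Against vehicle-treated LNCaP the KRT6 genes had few counts in either group, 4 against 0 for KRT6B, 4 against 1 for KRT6A and 0 against 18 for KRT6C over the 3 libraries of PC3 and of LNCaP. KRT10 differed from androgen-treated LNCaP by less than the spread, with 1528, 1112 and 1730 counts (59.7 ± 9.1 CPM) in PC3 and a log2 difference of -0.004 ± 0.143 (edgeR, adjusted p = 0.98). From vehicle-treated LNCaP it differed by 0.50 ± 0.12 (adjusted p = 0.0048), without overlap of the groups and under the fold change required.

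Of the 12 keratins tested against androgen-treated LNCaP, 11 were called, 7 higher and 4 lower in PC3, where 46.0% of all 12541 genes were called, 24.0% higher and 22.1% lower. Groups did not overlap in 11 of the 12 and in 86.5% of all genes. Against vehicle-treated LNCaP, 8 of 10 were called, 7 higher and 1 lower, beside 43.2% of all 12686 genes, 22.2% higher and 21.0% lower, and groups did not overlap in 10 of 10 and in 86.3% of all. Most of the keratins called higher passed the filter only through the PC3 libraries, so the keratins tested do not stand for the family. Without the filter on low values, 22 of 35 keratins were called against androgen-treated LNCaP, 13 higher and 9 lower (42.9% of all genes called, 22.5% higher and 20.4% lower), and 17 of 35 against vehicle-treated LNCaP, 14 higher and 3 lower (41.0%, 21.1% higher and 20.0% lower). KRT34, a hair keratin with 68, 52 and 34 counts in PC3, 4, 2 and 0 with androgen and 0 with vehicle, was among them, as were KRT32, KRT37 and KRT85 with at most 9 counts in any library. KRT2, with 0 counts in PC3, was at least 28.5-fold higher in androgen-treated LNCaP. KRT16 had 26, 9 and 39 counts in PC3, which overlapped those with androgen. KRT4 had at most 5 counts in any library.

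**Figure D3:**
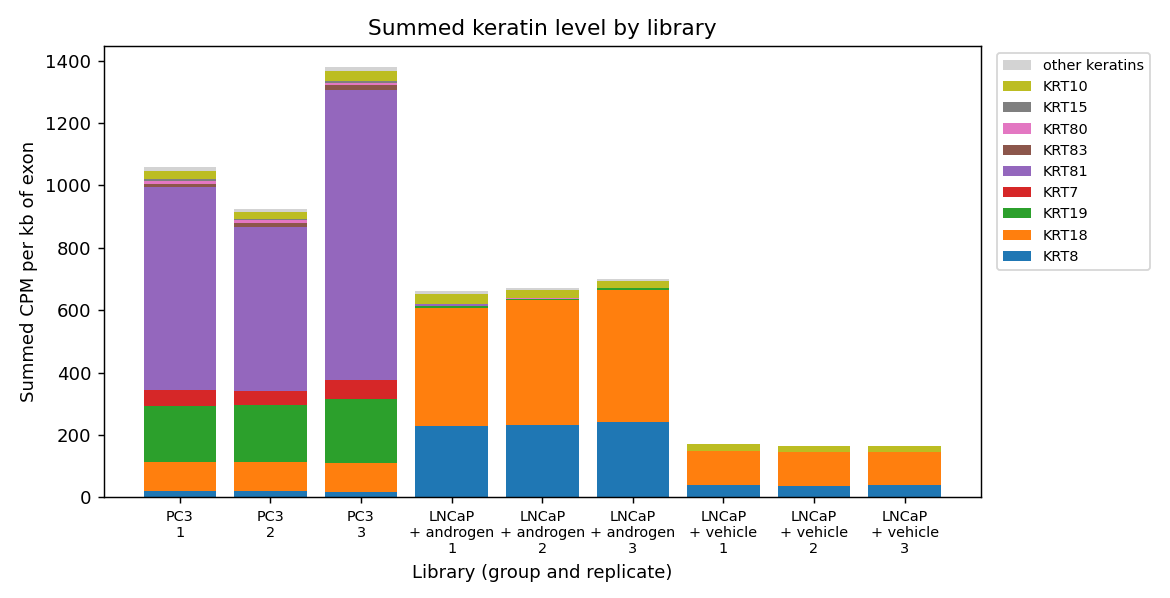
Summed keratin level of each library in CPM per kb of exon, stacked by gene. KRT81 makes up most of each PC3 bar, 61.9% on average, and KRT8 with KRT18 most of each LNCaP bar, 93.6% with androgen and 87.4% with vehicle. Per kb of the longest transcript, not drawn, the mean KRT81 share in PC3 is 49.4%.

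To compare levels between genes, CPM were divided by the length of all exons of a gene, with shared stretches included (36.9% of KRT81 stretches). On this scale the most abundant keratins of PC3 were KRT81 (702 ± 206 CPM per kb), KRT19 (189 ± 14), KRT18 (93.4 ± 1.6), KRT7 (53.0 ± 9.3), KRT10 (27.6 ± 4.2) and KRT8 (19.0 ± 0.5), and each lay above the next in all 3 libraries (SD, n = 3). KRT83 and KRT80 followed and overlapped, as did KRT75 and KRT15. Per kb of the longest transcript, KRT8 stood above KRT10 in PC3, at 45.6 and 27.6 CPM per kb. By that length KRT18 and KRT7, at 137 and 130 CPM per kb, overlapped between PC3 libraries. In LNCaP the order was KRT18, KRT8, KRT10 and KRT19 in both groups, at 400 ± 21, 234 ± 8, 27.5 ± 4.3 and 6.62 ± 1.07 CPM per kb with androgen, and at 107 ± 1, 38.4 ± 1.6, 19.2 ± 1.3 and 0.766 ± 0.311 with vehicle. Below KRT19 the order was not resolved, since KRT6B, KRT6C and KRT81 overlapped with androgen, and KRT19 and KRT81 overlapped with vehicle.

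Since type I and type II keratins pair, their sums were set side by side as a description. The type I sum was 318 ± 17 CPM per kb in PC3, 435 ± 16 with androgen and 127 ± 2 with vehicle, and the type II sum was 802 ± 216, 241 ± 5 and 39.3 ± 2.4 (SD, n = 3). The ratio of type II to type I was 2.50 ± 0.54 in PC3, 0.555 ± 0.014 with androgen and 0.309 ± 0.016 with vehicle. Per kb of the longest transcript it was 1.83, 0.909 and 0.525, in the same order of the groups. The level of the ratio therefore depends on the length used. In PC3 KRT81 alone made up 61.9 ± 5.2% of the summed keratin level, KRT19 17.2 ± 2.4%, KRT8 with KRT18 10.3 ± 2.2% and KRT7 4.75 ± 0.18%. KRT8 with KRT18 made up 93.6 ± 1.6% with androgen and 87.4 ± 1.0% with vehicle.

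**Figure D4:**
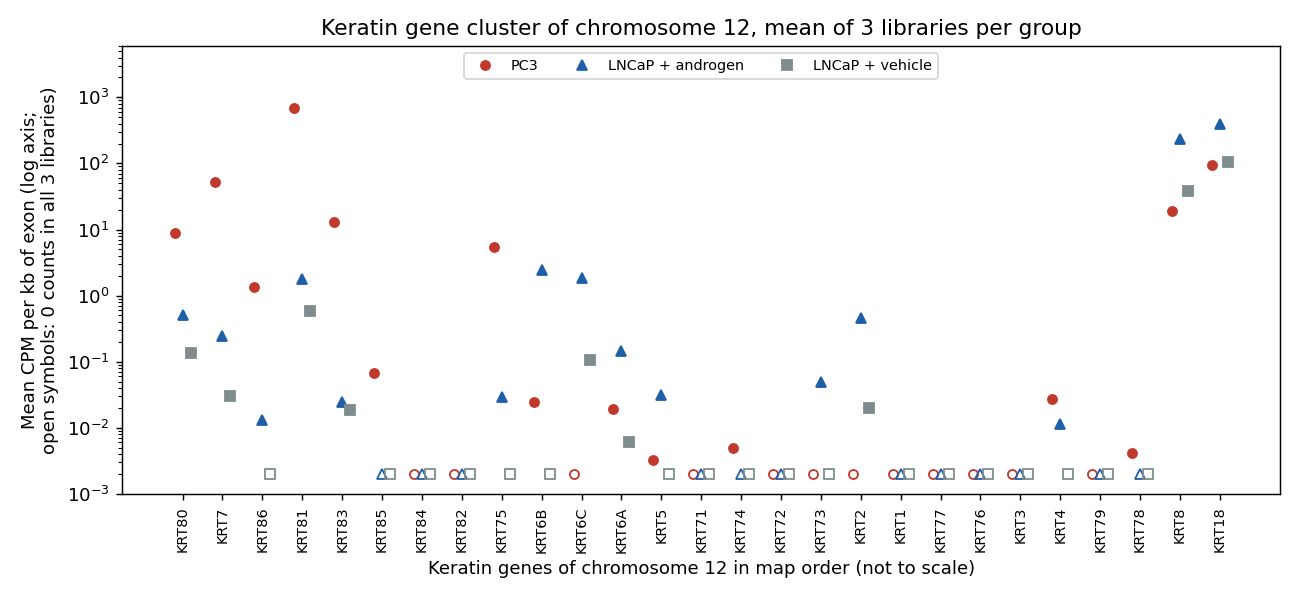
Mean level of the 27 keratin genes of the chromosome 12 cluster in map order, in CPM per kb of exon on a log axis (circles, PC3; triangles, androgen-treated LNCaP; squares, vehicle-treated LNCaP; open symbols, 0 counts in all 3 libraries). From KRT80 to KRT75 every gene with counts is highest in PC3, and from KRT6B to KRT5 every gene is highest in androgen-treated LNCaP.

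The keratins of chromosome 12 were also put in map order. KRT80, KRT7, KRT86, KRT81, KRT83, KRT85 and KRT75, which start between positions 52168996 and 52424070, were highest in PC3, and KRT84 and KRT82 between them had 0 counts. KRT6B, KRT6C, KRT6A and KRT5, next in order, were highest in androgen-treated LNCaP, as were KRT73 and KRT2 further on. KRT74, between KRT5 and KRT73, and KRT4 and KRT78, between KRT2 and KRT8, were highest in PC3, with 1, 6 and 1 counts there in all. Several of these genes, such as KRT5 and KRT73 with 8 counts each in androgen-treated LNCaP, rest on few counts. KRT8 (52897187 to 52949954) and KRT18 (52948871 to 52952906), at the end of the cluster, overlap on opposite strands and were highest in androgen-treated LNCaP. The order is a description of 1 cluster and was given no test.

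The genes that filaments attach to were listed by role. Of 11 keratin linkers (plakins and proteins of the desmosomal plaque) tested in PC3 against androgen-treated LNCaP, 6 were called higher and 4 lower (median log2 difference 1.44), and of 5 hemidesmosome genes 4 were higher and 0 lower (3.72), beside 24.0% of all genes higher, 22.1% lower and a median of 0.04. PKP1, a plakophilin of desmosomes, stood at 981 ± 363 CPM in PC3 and 2.75 ± 2.42 with androgen, and EPPK1, a plakin that binds keratins, at 0.881 ± 0.267 and 48.5 ± 1.1 CPM (SD, n = 3). ITGB4, the integrin chain of hemidesmosomes, stood at 168 ± 104 CPM in PC3 and 2.35 ± 0.64 with androgen, and its partner ITGA6 at 646 ± 25 and 42.4 ± 1.6 CPM. The linkers DST and PLEC, which are in both lists, were higher in PC3 by 3.72 and 3.03 on the log2 scale. Against vehicle-treated LNCaP 5 of 11 linkers were higher and 4 lower, and all 5 hemidesmosome genes were higher, beside 22.2% of all genes higher and 21.0% lower. With androgen against vehicle, 0 of 10 linkers were called in either direction (median 0.08, where 14.0% of all genes were called), and of the 5 hemidesmosome genes CD151, a tetraspanin, was called higher by 1.03 ± 0.06 (edgeR, adjusted p = 2.2e-09).

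Of 13 intermediate filament proteins outside the keratin family, 7 were tested in PC3 against androgen-treated LNCaP, with 5 higher and 0 lower (median 2.08; 24.0% and 22.1% of all genes), and 8 against vehicle-treated LNCaP, with 5 higher and 1 lower (22.2% and 21.0%). VIM, the vimentin of mesenchymal cells, stood at 1225 ± 59 CPM in PC3, 8.28 ± 3.82 with androgen and 2.25 ± 1.46 with vehicle. NES, the nestin of progenitor cells, stood at 192 ± 24, 0.962 ± 0.769 and 1.75 ± 0.40 CPM. With androgen against vehicle VIM was called higher by 1.86 ± 0.36 (edgeR, adjusted p = 0.00045) and LMNB1, a nuclear lamin, lower by 1.95 ± 0.07, from 263 ± 19 to 69.4 ± 5.9 CPM (adjusted p = 2.9e-11), among 6 tested, where 14.0% of all genes were called. VIM had 272, 143 and 106 counts with androgen and 75, 23 and 32 with vehicle, highest in replicate 1 of each group, as the 93 PC3 genes were, and their part in this difference was not tested.

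Of 13 regulators of the keratin network and epithelial transcription factors tested, 5 were higher and 7 lower in PC3 than in androgen-treated LNCaP (median -1.43; 24.0% and 22.1% of all genes), and 4 higher and 7 lower than in vehicle-treated LNCaP (22.2% and 21.0%). EHF and GRHL2, factors of epithelial differentiation, stood at 6.31 ± 1.47 and 3.53 ± 0.51 CPM in PC3 and at 827 ± 45 and 174 ± 7 CPM with androgen. KLF4 and KLF5, Krüppel-like factors of epithelia, were the 2 of 13 called with androgen against vehicle, a share near the 14.0% of all genes. They were higher by 2.43 ± 0.17 (edgeR, adjusted p = 3.4e-08) and 2.20 ± 0.11 (adjusted p = 1.7e-09). Of the 13 genes of the squamous envelope, the outer layer of keratinising cells, 2 or 3 were tested in a comparison, with 1 higher and 1 lower in PC3 than with androgen, 1 higher and 2 lower than with vehicle, and 0 higher and 1 lower with androgen than with vehicle. SFN, a 14-3-3 protein of squamous cells, stood at 67.1 ± 11.4 CPM in PC3 and 3.05 ± 0.68 with androgen. CNFN, cornifelin of the envelope, stood at 3.11 ± 0.35 and 13.4 ± 1.2 CPM. TGM3, a transglutaminase of the envelope, had 0 counts in PC3 and fell from 13.9 ± 2.4 CPM with vehicle to 0.337 ± 0.077 with androgen (edgeR, adjusted p = 2.6e-10).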

How the data were processed

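The authors trimmed adapters with cutadapt (4.1), aligned 74-nt single-end reads of poly(A) RNA to GRCh38 with STAR (2.7.7a) and removed PCR duplicates with UMI-tools (1.1.2), per the labels. The paper's supplement names other versions of cutadapt and STAR, and which were run cannot be told here. The annotation is not given in the sources used here. The deposited counts are whole numbers of reads per gene and library without normalization, 28216 genes in 9 libraries (17397706 to 25640325 counts). All 253944 values match those STAR gave for the forward strand, and 0 columns were left out.

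Genes with over 3 CPM in at least 3 of the 6 libraries compared were tested with the edgeR quasi-likelihood F test (4.0.16, R 4.3.3) and TMM factors, with Benjamini-Hochberg adjustment over all genes tested, and called where the adjusted p was under 0.05 and the change 2-fold or more. The scripts were tested on simulated data. The standard error is the log2 fold change divided by the root of F. Overlap of groups was judged in TMM-scaled CPM for keratins and in counts over library totals, without TMM factors, for all genes. The paper's likelihood ratio test and its batch term, which it does not define, were alternatives, as were DESeq2 (1.42.0), other filters, thresholds and scalings, unstranded counts and leaving out each library. Same-numbered LNCaP libraries with and without androgen deviated together from their group means (correlations of 0.58, 0.35 and 0.24 over 12198 genes). Androgen-treated replicate 3 also went with vehicle-treated replicate 2 (0.249), and androgen-treated replicate 2 with vehicle-treated replicate 3 (0.157). The values thus set replicate 1 apart and do not settle how replicates 2 and 3 pair. The numbers were used as a block in an alternative fit, which changed no call of a keratin. Ratios of pooled CPM and the limit of 3 counts for a count of 0 cover counting error only. Gene models and shared 74-nt stretches come from GENCODE on GRCh38, where all 55 keratins were found. Named with values were the keratins with over 3 CPM in at least 3 of 9 libraries, and the others with over 3 counts by counts. Of each other list at most 4 called genes were named, those with the largest change. Members of the marker lists were named apart from this rule. The keratins and lists were chosen with earlier results of these data known. The result of 1 marker list is not reported here.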

Additional observations from a re-analysis of the deposited data

Results flagged for a closer look

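A signal was present in reads that the comparisons did not use, those on the strand opposite to the gene. Reads on the reverse strand of KRT8 reached a mean of 217.7 CPM in androgen-treated LNCaP, against 57.9 CPM in the vehicle-treated controls and 50.1 CPM in PC3. They made up 11.6% to 12.2% of the KRT8 reads with androgen, 17.9% to 18.2% with vehicle and 27.1% to 28.9% in PC3, whereas 2.33% to 3.06% of the reads of all genes lay on the reverse strand. In all 9 libraries they amounted to 17.03% to 18.34% of the KRT18 counts. KRT8 and KRT18 lie on opposite strands and share 525 bases of exons between positions 52949216 and 52949954 of chromosome 12.

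Reads on the reverse strand of KRT6B had a mean of 0.444 CPM in PC3, with 7, 12 and 13 reads beside 1, 2 and 1 counts on the forward strand, and 0 in the vehicle-treated libraries. In androgen-treated LNCaP there were 2, 0 and 0 such reads beside 170, 98 and 79 counts. With unstranded counts KRT6B therefore differed less between PC3 and androgen-treated LNCaP, by -3.48 on the log2 scale.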

How the results depend on the processing

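The number of keratins called depended on which genes passed the filter on low values. Among the genes that passed it, the alternatives changed few calls. Without the filter, 22, 17 and 16 keratins were called against androgen-treated LNCaP, against vehicle-treated LNCaP and with androgen. Of all genes 42.9%, 41.0% and 14.4% were called in these fits. With androgen, filterByExpr or a fit of all 9 libraries gave 8 keratins, more genes being tested in each case. Another 46 counts stayed within 1.5 times, including 5 with androgen, 11 and 8 whenever a library was left out. The shares of all genes called with filterByExpr, with all 9 libraries and without a library are not given. These counts are therefore set against no share. Of the log2 fold changes, 468 kept direction and call. KRT10, not called between PC3 and androgen-treated LNCaP, turned to 0.007 without the filter, 0.01 with unstranded counts, 0.116 without PC3 replicate 2 and 0.121 without androgen-treated replicate 1 (leaving out each library, -0.124 to 0.121). KRT8 against vehicle-treated LNCaP lost its call under glmTreat, and an adjusted p alone would call KRT10 and KRT18 against vehicle-treated LNCaP and KRT10 with androgen. Per kb of the longest transcript, type I sums were 493.5 (PC3), 627.6 (androgen) and 177.6 (vehicle), type II sums 570.4 (androgen) and 93.23 (vehicle), and ratios 1.827, 0.9092 and 0.5248. With unstranded counts type I sums were 371.1 (androgen) and 110.8 (vehicle) and ratios 0.6561 and 0.3554. The part of reads on the exons that KRT8 and KRT18 share was not tested.

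With the replicate block KRT8 rose by 2.58 with androgen (edgeR, adjusted p = 5.4e-17), and the block changed no call of a keratin in any comparison. Same-numbered PC3 and LNCaP libraries did not deviate together (correlations between -0.095 and 0.029), so the values show no pairing by number there. Whether these libraries shared a batch was not tested. With DESeq2 size factors in place of TMM the median of all genes moved by less than 0.1. Depth limits the 14 keratins with over 3 CPM in fewer than 3 libraries and the 29 with at most 3 counts.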

Other observations

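Keratin-associated proteins, which embed the keratins of the hair shaft and are no keratins themselves, were looked at after the values of the hair keratins were seen. KRTAP2-3 had 127, 93 and 101 counts in PC3, KRTAP4-9 81, 76 and 74, KRTAP3-1 45, 27 and 21, and KRTAP1-5 26, 21 and 21. In the 6 LNCaP libraries these 4 genes had at most 1 count each. KRTAP13-2 had 0 counts in PC3 and vehicle-treated LNCaP and 5, 0 and 3 with androgen. These genes were picked by their counts, and no test was made of this group.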
